A study of Mus musculus with 80 samples.

Results

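The lung macrophage markers are 9 genes chosen by name: Adgre1, Atp6v0d2, Cd68, Chil3, Ctsk, Fabp4, Marco, Mrc1 and Plet1. They were read in whole lungs of adult male mice, from Affymetrix arrays that gave a log2 signal for each probe set. Each gene stands for its probe set of highest mean over the 80 arrays, among probe sets annotated with a single symbol. The markers are 9 of 17097 genes with such a probe set, and all 9 are among the 11406 genes tested. The mice had inhaled 10, 40 or 120 ppm of styrene, a solvent used to make plastics, or air alone (0 ppm), once for 6 h, and lungs were collected on the next morning. The strains were CYP2F2 knockout mice (KO), CYP2F1 humanized mice (TG), CD-1 mice, an outbred stock, and wild-type mice (WT), where KO, TG and WT are C57Bl/6 per the series title. CYP2F2, a cytochrome P450 that oxidizes styrene, is found in the secretory club cells that line mouse airways, and CYP2F1 is the human gene of this subfamily. The labels give neither the promoter of the human gene nor the state of the mouse gene in TG lungs. Each of the 16 combinations of strain and dose held 5 arrays, and the number of arrays limits the precision.

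Alveolar macrophages live on the air side of the lung, clear surfactant and inhaled particles, and depend on GM-CSF signalling and the nuclear receptor PPAR-gamma for their identity. Interstitial macrophages lie in the tissue, and blood monocytes that enter an injured lung can turn into macrophages of either place. Marker genes tell of these cells only through their RNA: in a whole lung, fewer cells of a type and less RNA per cell cannot be told apart.

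Of the markers, Adgre1 encodes F4/80, a surface receptor of most mouse macrophages, and Cd68 a glycoprotein of their late endosomes and lysosomes. Mrc1 (the mannose receptor CD206) and Marco (a scavenger receptor) bind sugars and particles. Chil3 encodes Ym1, a secreted chitinase-like protein that mouse alveolar macrophages make in quantity. Ctsk encodes the lysosomal protease cathepsin K, Atp6v0d2 a subunit of the vacuolar proton pump, and Fabp4 a fatty acid carrier. Plet1 encodes a membrane-anchored surface protein. Several are not private to macrophages: Fabp4 is a main product of fat cells and of capillary endothelium, Ctsk is made by osteoclasts and some fibroblasts, and Plet1 by some epithelial cells. In the GRCm38.p6 annotation Chil3, Ctsk and Fabp4 lie on chromosome 3, Marco on chromosome 1, Mrc1 on chromosome 2, Atp6v0d2 on chromosome 4, Plet1 on chromosome 9, Cd68 on chromosome 11 and Adgre1 on chromosome 17. In 80 of 80 arrays each marker's signal exceeded 4.28, the table's median.

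Before the values, 3 features of the arrays matter. Medians over all probe sets lay between 4.09 and 4.20 for KO arrays, between 3.84 and 4.14 for TG arrays, between 4.24 and 4.296 for CD-1 arrays and between 4.53 and 4.603 for WT arrays, so levels are compared between strains only relative to this shift. TG 0 ppm replicate 4 had the lowest median. WT 10 ppm replicate 2 had the lowest signal of its group for 7 of the 9 markers, with an array median of 4.59. Cyp2f2, the targeted gene, had a median signal of 11.6 over KO arrays, 11.8 over TG arrays, 12.9 over CD-1 arrays and 12.7 over WT arrays. These are levels as deposited, which carry the shift between strains. Whether its probes lie in the deleted part is not known here.

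Promoter sequences are shown for markers that moved in WT, since these are the stretches where the 2 directions could be compared. Each window runs from 250 bases before to 50 after the gene's start, from RefSeq on GRCm38.p6, 5′ to 3′ on the gene's strand. An entry was found for 6 of the 9 markers, and not for Adgre1, Atp6v0d2 and Fabp4. Capitals mark 3 motifs, searched on both strands: the PU.1 core GAGGAA (or TTCCTC), the AP-1 site TGACTCA (or TGAGTCA) and the E-box CACGTG. PU.1 is the lineage factor of macrophages. Cd68 and Ctsk rose in WT and Plet1 fell.
Cd68, chr11:69666121-69666420, minus strand: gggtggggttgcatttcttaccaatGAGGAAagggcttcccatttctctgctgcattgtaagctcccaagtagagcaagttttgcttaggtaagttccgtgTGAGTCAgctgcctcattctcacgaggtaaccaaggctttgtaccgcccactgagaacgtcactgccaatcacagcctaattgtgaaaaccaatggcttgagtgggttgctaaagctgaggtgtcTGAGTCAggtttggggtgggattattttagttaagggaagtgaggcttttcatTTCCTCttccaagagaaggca
Ctsk, chr3:95498960-95499259, plus strand: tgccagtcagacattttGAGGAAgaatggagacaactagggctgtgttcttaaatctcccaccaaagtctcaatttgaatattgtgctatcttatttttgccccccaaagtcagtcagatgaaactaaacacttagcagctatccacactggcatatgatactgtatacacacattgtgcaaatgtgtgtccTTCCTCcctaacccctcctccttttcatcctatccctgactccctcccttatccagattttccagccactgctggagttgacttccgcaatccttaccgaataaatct
Plet1, chr9:50494275-50494574, plus strand: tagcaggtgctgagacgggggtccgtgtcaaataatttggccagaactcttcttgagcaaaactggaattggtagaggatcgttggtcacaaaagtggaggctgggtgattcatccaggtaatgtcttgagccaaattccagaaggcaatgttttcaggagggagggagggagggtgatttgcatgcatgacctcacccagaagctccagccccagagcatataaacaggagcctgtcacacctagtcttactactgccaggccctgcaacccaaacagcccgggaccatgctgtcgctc
The Cd68 window held GAGGAA and TGACTCA, the Ctsk window GAGGAA, and the Plet1 window none of the 3 motifs. GAGGAA was in 4 of the 6 marker windows (Cd68, Ctsk, Marco and Mrc1) and in 28.3% of all 32851 promoters of the table. TGACTCA was in 1 of the 6 and in 5.20% of all, and CACGTG in 0 of the 6 and in 7.15% of all. A match describes letters in this window and says nothing about binding.

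In WT lungs styrene moved 4 of the 9 markers, and in opposite directions. Ctsk and Cd68 rose, Plet1 and Adgre1 fell, and Chil3, Mrc1, Marco, Atp6v0d2 and Fabp4 did not pass the test at any dose. Against air, 1 marker passed at 10 ppm (of all genes tested, 12.6% passed), 4 at 40 ppm (26.0%) and 2 at 120 ppm (23.9%). For the mean of the 3 exposed groups against air, 4 passed (29.6%). Nothing about the markers as a set is read from these counts. The median change of the markers was 0.09 at 10 ppm, 0.22 at 40 ppm and 0.05 at 120 ppm, and that of all genes tested was -0.00 at 10 ppm, -0.01 at 40 ppm and 0.01 at 120 ppm. All changes are log2 differences with their standard error (SE) from limma, 5 arrays a group, and p-values are adjusted over all genes tested. The 3 contrasts share the same 5 air arrays.

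**Figure D1:**
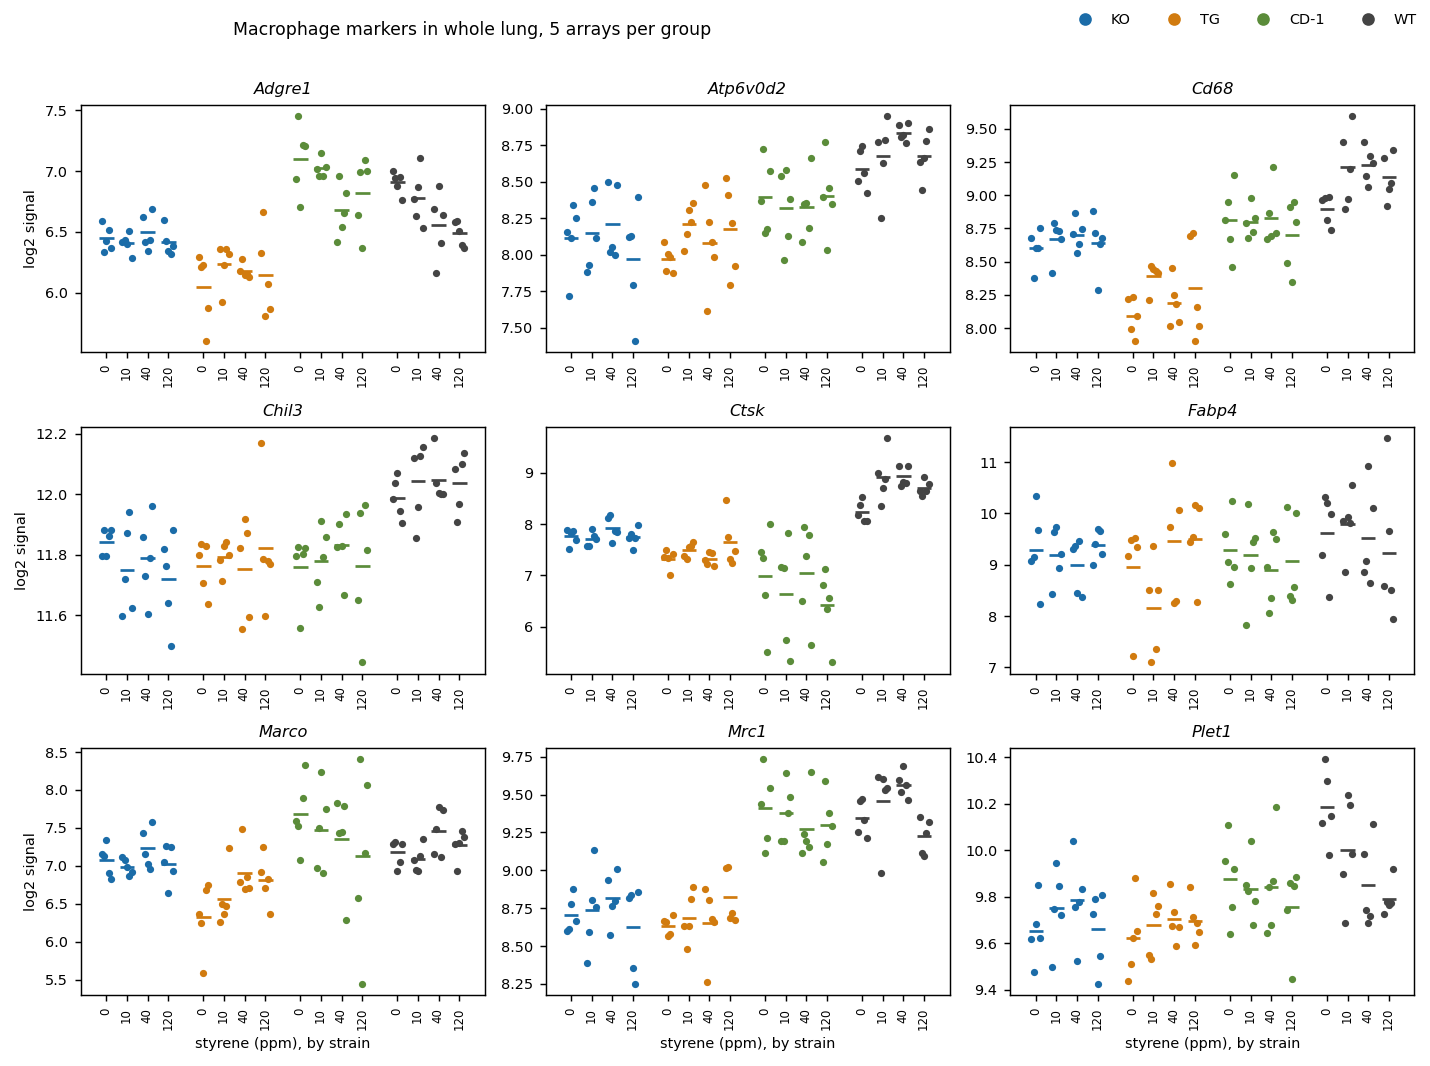
Log2 signal of the 9 markers (y axis) in each of 80 arrays, by strain and by styrene in ppm (x axis); points are arrays and bars the means of 5 arrays. Ctsk in WT lay at 8.35 or higher in all exposed arrays, and Ctsk in CD-1 spread between 5.30 and 8.002.

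Ctsk changed most among the 4. Its WT signal was 8.99, 8.35, 8.70, 8.88 and 9.68 at 10 ppm, against 8.19, 8.38, 8.52, 8.07 and 8.05 in air. At 40 ppm it was 9.14, 8.74, 8.83, 8.81 and 9.13, and at 120 ppm 8.65, 8.55, 8.92, 8.64 and 8.77. Every array at 40 and at 120 ppm lay above every air array, and at 10 ppm 1 array fell among them. The difference from air was 0.68 ± 0.17 at 10 ppm (1.60-fold, adjusted p = 0.0118), 0.69 ± 0.17 at 40 ppm (1.61-fold, adjusted p = 0.00585) and 0.46 ± 0.17 at 120 ppm, where it missed the threshold (adjusted p = 0.0534). The mean over the 3 doses was 0.61 ± 0.14 (adjusted p = 0.00276). Without WT 0 ppm replicate 3 the 120 ppm difference passed (adjusted p = 0.0418). Fitting all 80 arrays together, which takes in the wide spread of Ctsk in CD-1, ended the calls at 10 ppm, at 40 ppm and for the mean (adjusted p = 0.186, 0.119 and 0.0793).

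Cd68 rose by less. Its signal was 9.40, 9.15, 9.06, 9.29 and 9.24 at 40 ppm, against 8.96, 8.98, 8.82, 8.99 and 8.74 in air, and the groups did not overlap. The difference was 0.33 ± 0.11 (1.26-fold, adjusted p = 0.0364). At 10 ppm it was 0.32 ± 0.11 (adjusted p = 0.0729) and at 120 ppm 0.24 ± 0.11 (adjusted p = 0.133), with all 5 exposed arrays above the air mean at both doses. The 40 ppm call was lost without WT 0 ppm replicate 3 or 5, or without WT 40 ppm replicate 1, 4 or 5 (adjusted p 0.0561 to 0.0911). Without WT 10 ppm replicate 2 or 3 Cd68 passed at 10 ppm as well (adjusted p = 0.0213 and 0.039). For the mean over the doses Cd68 gave 0.30 ± 0.09 (adjusted p = 0.021), lost without WT 0 ppm replicate 3 or 5 (adjusted p = 0.0588 and 0.0744). The 40 ppm call was lost in the fit of all 80 arrays too (adjusted p = 0.0521).

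Plet1 was lower at the higher doses. Its signal was 9.73, 9.78, 9.76, 9.77 and 9.92 at 120 ppm, against 10.12, 10.39, 10.30, 9.98 and 10.15 in air, with no overlap. At 40 ppm it was 9.98, 9.74, 9.69, 9.72 and 10.11, where the 2 highest arrays reached the range of air. The difference was -0.19 ± 0.10 at 10 ppm (adjusted p = 0.256), -0.34 ± 0.10 at 40 ppm (0.792-fold, adjusted p = 0.0216) and -0.39 ± 0.10 at 120 ppm (0.761-fold, adjusted p = 0.00947). A second probe set of Plet1 gave -0.34 ± 0.11 at 40 ppm and at 120 ppm (adjusted p = 0.0321 and 0.0342), and one more, at a mean signal of 4.46, gave -0.15 and -0.16 with SE 0.09 (adjusted p = 0.234 and 0.221). The 40 ppm call was lost without WT 0 ppm replicate 2 or 3, or without WT 40 ppm replicate 2, 3 or 4 (adjusted p 0.0523 to 0.0618).

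Adgre1 followed the same order. Its signal was 6.58, 6.59, 6.51, 6.40 and 6.37 at 120 ppm, against 7.00, 6.94, 6.88, 6.95 and 6.76 in air, again with no overlap. At 40 ppm the arrays ran from 6.17 to 6.88, and all 5 lay below the air mean. The difference was -0.13 ± 0.11 at 10 ppm (adjusted p = 0.515), -0.35 ± 0.11 at 40 ppm (0.785-fold, adjusted p = 0.0291) and -0.42 ± 0.11 at 120 ppm (0.748-fold, adjusted p = 0.0117). The 40 ppm call was lost without WT 0 ppm replicate 1, 2 or 4, or without WT 40 ppm replicate 2 or 4 (adjusted p 0.0548 to 0.087). For the mean over the doses Adgre1 gave -0.30 ± 0.09 (adjusted p = 0.0206), lost without WT 0 ppm replicate 1 or 4 (adjusted p = 0.057 and 0.0503). The calls of Plet1 and Adgre1 at 120 ppm stood without any single array.

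Of the 4 calls at 40 ppm, 2 were left without WT 0 ppm replicate 2 or 3 or WT 40 ppm replicate 2, and 1 without WT 40 ppm replicate 4. Each other array of these groups also cost a call. Adgre1 was lost without WT 0 ppm replicate 1 or 4, and Plet1 without WT 40 ppm replicate 3. Cd68 was lost without WT 0 ppm replicate 5 or WT 40 ppm replicate 1 or 5. All 4 calls therefore never held together once any single array was left out. Without WT 10 ppm replicate 2, the array with the low markers, 3 passed at 10 ppm (Ctsk, Cd68 and Mrc1). That array had the lowest Cd68 and Mrc1 signals of its group, so leaving it out raised their means. Nothing is read from these added calls. Without WT 10 ppm replicate 3, 2 passed at 10 ppm.

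**Figure D2:**
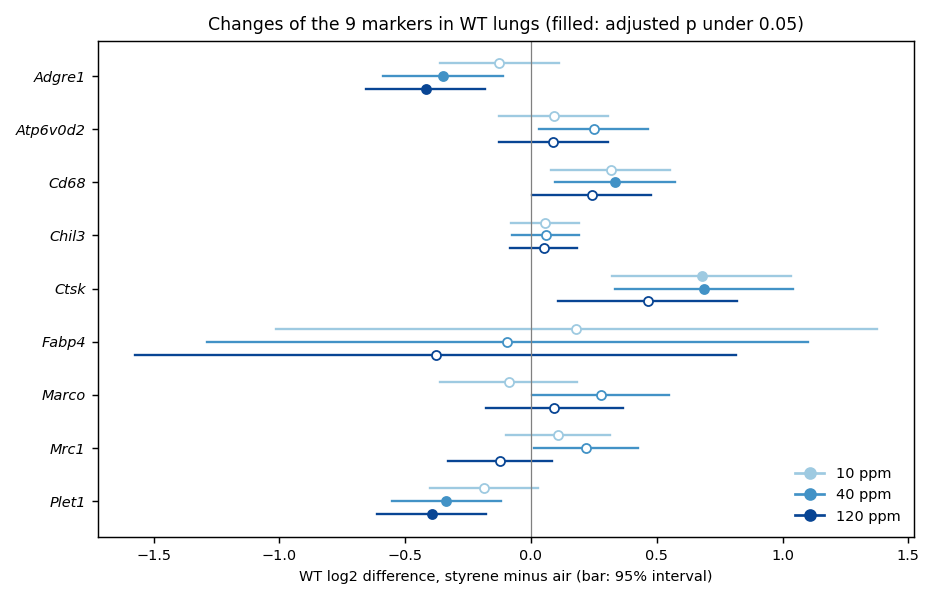
Log2 difference between styrene and air in WT lungs (x axis) for each marker (y axis) at 10, 40 and 120 ppm; bars are 95% intervals and filled points passed at an adjusted p under 0.05. Ctsk and Cd68 lie right of 0, Plet1 and Adgre1 left of it, and the interval of Fabp4 is the widest.

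Chil3 hardly moved. It was 12.12, 11.85, 11.96, 12.13 and 12.16 at 10 ppm, against 11.98, 12.04, 12.07, 11.95 and 11.91 in air. Its difference from air lay between 0.05 and 0.06 at the 3 doses with an SE of 0.06, and the 95% intervals ran from -0.08 to 0.19. For its near copy Chil4 the 40 ppm difference was 0.04 ± 0.10 (adjusted p = 0.815). The 2 genes are close in sequence, and how far their probe sets share signal was not tested.

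Mrc1 and Atp6v0d2 were highest at 40 ppm without passing. Mrc1 was 9.60, 9.52, 9.69, 9.56 and 9.46 at 40 ppm, against 9.26, 9.46, 9.47, 9.33 and 9.21 in air, a difference of 0.22 ± 0.10 (95% interval 0.01 to 0.43, adjusted p = 0.108). At 120 ppm it was 9.35, 9.12, 9.09, 9.24 and 9.32, all below every array at 40 ppm, and the difference between these doses was -0.34 ± 0.10 (adjusted p = 0.547). Atp6v0d2 was 8.89, 8.81, 8.82, 8.77 and 8.90 at 40 ppm, against 8.50, 8.71, 8.75, 8.56 and 8.42 in air, with no overlap, a difference of 0.25 ± 0.10 (adjusted p = 0.0827). The Marco difference was -0.09 ± 0.13 at 10 ppm, 0.28 ± 0.13 at 40 ppm (adjusted p = 0.124) and 0.09 ± 0.13 at 120 ppm, and its arrays at 40 ppm ran from 7.12 to 7.77. Without WT 10 ppm replicate 2, whose Mrc1 signal was 8.98, Mrc1 passed at 10 ppm against air (adjusted p = 0.03) and at 120 against 10 ppm (adjusted p = 0.0134), and Atp6v0d2 passed for the mean over the doses (0.18, adjusted p = 0.0435).

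Between the exposed WT groups 0 of the 9 markers passed. The share of all genes that passed was 0.947% for 40 against 10 ppm, 0.903% for 120 against 10 ppm and 0% for 120 against 40 ppm. At an unadjusted p under 0.05, limma gave 1, 2 and 1 markers in these contrasts, against 1748, 1533 and 839 of 11406 genes. The marker with the lowest adjusted p was Marco at 40 against 10 ppm, with 0.36 ± 0.13 (adjusted p = 0.181).

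Fabp4 varied more between arrays than between doses. In WT its lowest, median and highest signals were 8.85, 9.85 and 10.55 at 10 ppm, 8.64, 9.07 and 10.94 at 40 ppm and 7.95, 8.59 and 11.47 at 120 ppm, against 8.38, 9.98 and 10.32 in air. Its difference from air at 120 ppm was -0.38 ± 0.57 (95% interval -1.57 to 0.81, adjusted p = 0.6705), so changes of the size seen for Ctsk were not detectable for this gene. The SD within groups, pooled over the 4 doses, was 0.56 for KO, 0.98 for TG, 0.79 for CD-1 and 0.99 for WT.

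The variation of Fabp4 followed transcripts of fat cells. After the group means were taken off, the 3 genes most like Fabp4 over the 80 arrays were Car3 (r = 0.931), Adipoq (r = 0.931), which encodes the fat-cell hormone adiponectin, and Retn (r = 0.900), which encodes resistin. Within single strains (20 arrays each) these 3 correlations ran from 0.892 to 0.978. With the other 8 markers Fabp4 correlated between -0.196 and 0.205. The adipose tissue list had 8 of its 12 genes tested, and their correlation with Fabp4 ran from 0.278 to 0.931 (median 0.808). For the other markers the median over these 8 genes lay between -0.301 and 0.081. The mean log2 signal of the 8 genes ran from 4.67 to 8.12 over the WT arrays at 120 ppm and from 5.49 to 6.88 in WT air. A second probe set of Fabp4 deviated in step with the first (r = 0.988). One more, at a mean signal of 3.39, below the table's median, followed it less closely (r = 0.683). The label of a lung macrophage marker was not borne out by the variation of Fabp4 within groups, and no change of macrophages is read from it. These correlations do not tell which cells gave its level. The parts of fat tissue, endothelium and macrophages in that level were not tested.

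**Figure D3:**
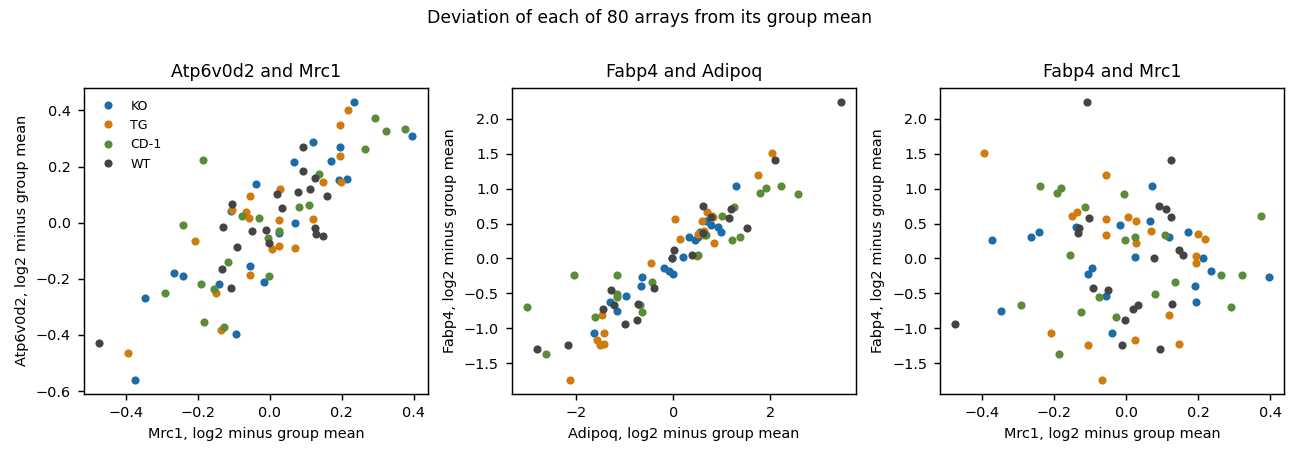
Deviation of each of 80 arrays from its group mean, in log2 units on both axes, for Atp6v0d2 and Mrc1 (r = 0.811), Fabp4 and Adipoq (r = 0.931) and Fabp4 and Mrc1 (r = -0.057); colours are strains. Points rise along a line in the first 2 panels and scatter in the last.

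Atp6v0d2, Mrc1, Chil3 and Plet1 were correlated from mouse to mouse. Over 80 arrays the deviations from the group means correlated with r = 0.811 for Atp6v0d2 and Mrc1, 0.745 for Atp6v0d2 and Chil3, 0.706 for Chil3 and Mrc1, 0.656 for Atp6v0d2 and Plet1, 0.611 for Mrc1 and Plet1 and 0.533 for Chil3 and Plet1. The pairs with Plet1 were lower in some strains: Mrc1 and Plet1 gave r = 0.378 within TG and 0.453 within WT, and Chil3 and Plet1 gave 0.373 within TG and 0.417 within WT. The gene most like Chil3 was Chil4 (r = 0.887), also closest to Atp6v0d2 (r = 0.802), and Il18, a cytokine gene active in alveolar macrophages, was closest to Mrc1 (r = 0.775). Plet1 was most like the chemokine gene Ccl6 (r = 0.655) and Pparg (r = 0.627). Strain by strain, the lowest r was 0.502 for Mrc1 and Il18 (WT), 0.479 for Plet1 and Ccl6 (WT) and 0.422 for Plet1 and Pparg (TG). Over the 80 arrays Ctsk correlated with the other markers between -0.085 and 0.405, and its nearest gene was Pstpip2 (r = 0.570). This low range depended on the strain: within the 20 WT arrays Ctsk correlated with Atp6v0d2 at r = 0.808 and with Cd68 at r = 0.704, and within the 20 CD-1 arrays at r = 0.006 and r = 0.338. Adgre1 was nearest to Ltc4s (r = 0.679), Cd300c2 (r = 0.647) and Fcgr3 (r = 0.641), an Fc receptor gene, with r between 0.309 and 0.440 for these 3 within WT, and Cd68 to Nek6 (r = 0.690) and Csf2rb (r = 0.688), a subunit of the GM-CSF receptor. Cd68 was least like these 2 within TG, with r = 0.457 for Nek6 and 0.41 for Csf2rb. Marco was nearest to Lrg1 (r = 0.543), with r = 0.693 within CD-1 but -0.009 within WT. These correlations describe arrays that share their RNA preparation and scan, and likeness was ranked after the values were known.

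Other macrophage genes of WT lungs were counted for the mean of the 3 doses, where 16.3% of all genes rose and 13.3% fell. Of 16 tested genes from a list of other alveolar macrophage genes, 4 rose and 6 fell, with a median of -0.10 against 0.00 for all genes. The 4 of lowest p were Siglecf, a sialic acid receptor that marks alveolar macrophages and eosinophils (-0.90 ± 0.09, adjusted p = 3.96e-07), the cholesterol exporter gene Abcg1 (-0.80 ± 0.08, adjusted p = 4.36e-07), the keratin gene Krt19, active in epithelium too (0.49 ± 0.08), and Pparg (-0.46 ± 0.09, adjusted p = 0.000535). Msr1, a scavenger receptor gene named after its value was seen, rose by 0.99 ± 0.19 (adjusted p = 0.000678). Siglecf fell at each dose, by 0.80 at 10 ppm, 0.88 at 40 ppm and 1.02 at 120 ppm, with an SE of 0.11.

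Genes of alternative activation, the macrophage state induced by interleukin 4, were tested for 10 members in WT: 6 rose, 0 fell and 4 did not pass, with a median of 0.36, while 16.3% of all genes rose. Retnla, a secreted resistin-like protein, rose by 1.51 ± 0.12, the chemokine genes Ccl17 and Ccl22 by 1.32 ± 0.15 and 1.16 ± 0.11, and the arginase gene Arg1 by 1.23 ± 0.34. Chil3 and Mrc1, both usually counted among genes of this state, did not pass in the same arrays. Of 18 genes of lysosomes and the proton pump 4 rose and 1 fell, with a median of 0.03, a share near the 29.6% of all genes that passed. The risers were Gpnmb, a lysosomal membrane protein of lipid-laden macrophages (0.76 ± 0.13), the transcription factor gene Mitf (0.27 ± 0.06), and the protease genes Ctsz (0.23 ± 0.06) and Lgmn (0.20 ± 0.05). Of 23 genes of interstitial and general macrophages 4 rose and 2 fell, among them Lgals3 (0.52 ± 0.09) and Csf1r, the receptor of the growth factor M-CSF (-0.37 ± 0.06), and this count is near that share too. These lists were drawn up with earlier results of these data known.

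Markers of other cells were counted in the same WT arrays, against 16.3% of all genes that rose and 13.3% that fell. Of 11 monocyte genes 6 rose and 0 fell (median 0.37), and their mean log2 signal ran from 7.76 to 7.96 at 10 ppm, 7.60 to 8.04 at 40 ppm and 7.65 to 7.93 at 120 ppm, against 7.29 to 7.56 in air. Vcan, a matrix proteoglycan gene active in monocytes, rose by 1.60 ± 0.15 and S100a4 by 0.44 ± 0.10. Of 12 club cell genes 10 fell and 0 rose (median -0.67), with a mean signal of 10.80 to 11.17 at 10 ppm, 10.15 to 10.79 at 40 ppm and 10.45 to 10.80 at 120 ppm, against 11.25 to 11.44 in air. Of 13 fibroblast genes 1 rose and 4 fell, of 14 endothelial genes 1 rose and 3 fell, of 10 dendritic cell genes 4 fell, of 12 neutrophil genes 1 rose, of 9 genes of classical activation 2 rose and 1 fell, of 4 chitinase genes 1 rose, and of 8 adipose genes 1 rose. The endothelial and classical activation counts lie near the share of all genes that passed (29.6%) and the neutrophil count below it. The part of these cells in the rise of Ctsk and Cd68 and the fall of Plet1 and Adgre1 was not tested.

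**Figure D4:**
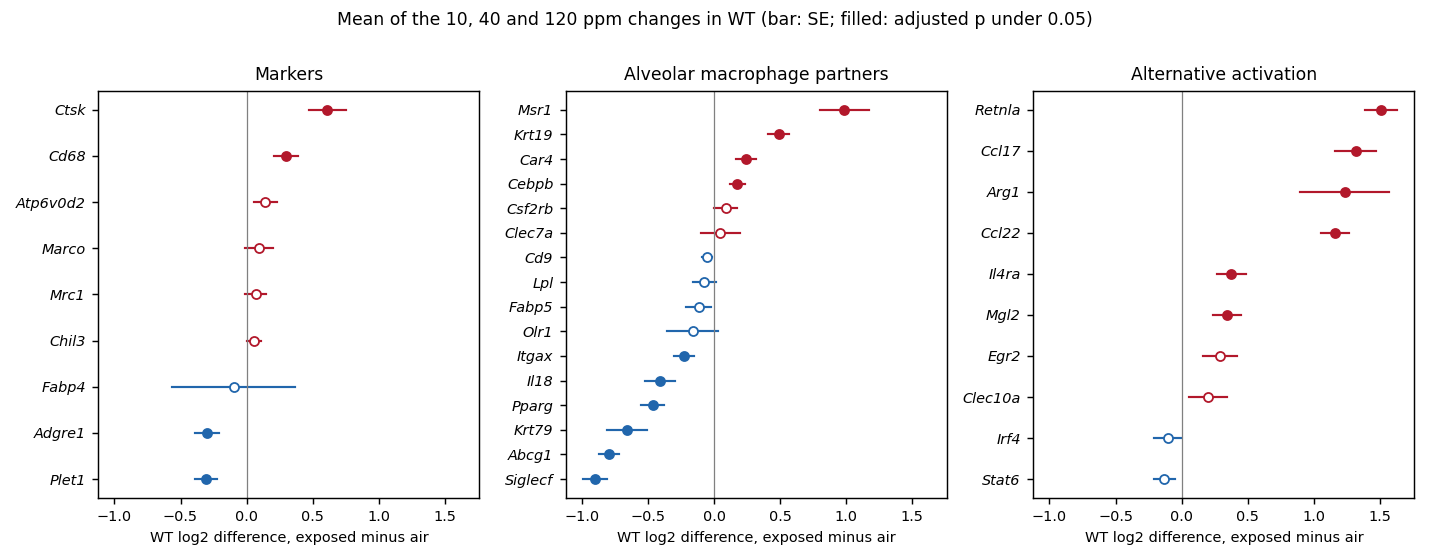
Mean of the 3 dose changes in WT lungs, exposed minus air, in log2 units (x axis), for the 9 markers, 16 alveolar macrophage genes and 10 genes of alternative activation; bars are SE and filled points passed at an adjusted p under 0.05. Siglecf (-0.90) and Retnla (1.51) lie at the ends.

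In KO lungs 0 of the 9 markers passed at 10, 40 or 120 ppm or for the mean of the 3 doses, and neither did any other gene (0%). Limma's count at an unadjusted p under 0.05 was also 0 for the markers at each dose, and ran from 564 to 649 for all genes. Apart from Fabp4, the marker changes in KO ran from -0.15 to 0.17, and all 95% intervals lay between -0.49 and 0.44. Ctsk was 8.12, 8.18, 7.62, 7.87 and 7.84 in KO at 40 ppm, against 7.89, 7.52, 7.82, 7.86 and 7.70 in KO air. Plet1 was 10.04, 9.76, 9.52, 9.78 and 9.83 in KO at 40 ppm, against 9.62, 9.48, 9.68, 9.85 and 9.62 in KO air. For both genes the ranges of the KO groups overlapped.

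In TG lungs 0 of the 9 markers passed. Of all genes 0% passed at 10 and at 40 ppm, 0.0701% at 120 ppm and 0.105% for the mean of the doses. At an unadjusted p under 0.05, limma gave 1 marker in each of the 4 contrasts and 867 to 1625 of all genes. Without Fabp4 the changes ran from -0.01 to 0.58, while the median of all genes stood between 0.05 and 0.06 at the 3 doses. The highest was Marco at 40 ppm, with 6.79, 7.48, 6.69, 6.85 and 6.71, against 6.37, 6.245, 5.59, 6.69 and 6.74 in TG air (0.58 ± 0.22, 95% interval 0.13 to 1.03, adjusted p = 0.551). Ctsk in TG was 8.47, 7.74, 7.32, 7.24 and 7.48 at 120 ppm, against 7.37, 7.49, 7.33, 7.02 and 7.42 in air, so that replicate 1 stood above the other 4 (0.33 ± 0.16, adjusted p = 0.415).

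In CD-1 lungs 0 of the 9 markers passed either, against 0% of all genes at 10 ppm, 0.00877% at 40 ppm, 0.0175% at 120 ppm and 0.00877% for the mean. At an unadjusted p under 0.05, limma gave 1 marker (Adgre1) at 40 ppm and for the mean and 0 at 10 and 120 ppm, and 272 to 597 of all genes. Adgre1 was lower at 40 ppm, with arrays from 6.42 to 6.96, against 6.71 to 7.45 in CD-1 air (-0.42 ± 0.14, 95% interval -0.72 to -0.12, adjusted p = 0.9995). Ctsk and Marco spread widely in this outbred stock. The pooled SD within CD-1 groups was 0.93 for Ctsk, against 0.18 within KO, 0.28 within TG and 0.29 within WT groups. For Marco it was 0.76 within CD-1, against 0.22 within KO, 0.38 within TG and 0.22 within WT groups. The 95% interval of Ctsk in CD-1 was -1.46 to 0.79 at 10 ppm and -1.68 to 0.57 at 120 ppm, and each holds the WT difference at its own dose.

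**Figure D5:**
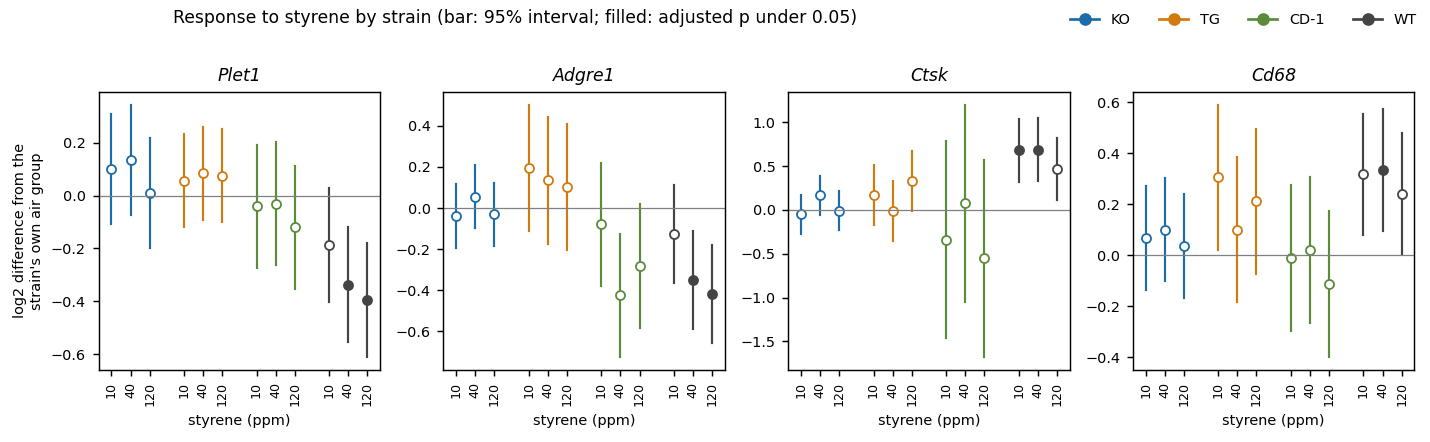
Log2 difference from the strain's own air group (y axis) for Plet1, Adgre1, Ctsk and Cd68 at 10, 40 and 120 ppm (x axis) in KO, TG, CD-1 and WT; bars are 95% intervals and filled points passed at an adjusted p under 0.05. Filled points occur in WT and in no other strain, and the bars of Ctsk in CD-1 are the longest.

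The difference in response itself was tested between each strain and WT. For KO minus WT, 1 marker passed at 10 ppm (7.59% of all genes), 2 at 40 ppm (13.9%), 0 at 120 ppm (11.4%) and 2 for the mean of the doses (17.2%). The marker at 10 ppm was Ctsk, whose response was lower in KO by -0.73 ± 0.21 (adjusted p = 0.0228). It was lost without WT 10 ppm replicate 5 (adjusted p = 0.0544). Over the mean of the doses its difference was -0.57 ± 0.17 (adjusted p = 0.0155), and it stood without any single array. The fit of all 80 arrays ended both Ctsk calls (adjusted p = 0.428 and 0.343) and that of Adgre1 at 40 ppm (adjusted p = 0.16).

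At 40 ppm the KO minus WT difference was 0.47 ± 0.15 for Plet1 (adjusted p = 0.0265) and 0.40 ± 0.14 for Adgre1 (adjusted p = 0.0435), where the KO differences from air were 0.13 ± 0.10 for Plet1 and 0.06 ± 0.07 for Adgre1. At 120 ppm the differences were 0.40 ± 0.15 for Plet1 (adjusted p = 0.0677) and 0.39 ± 0.14 for Adgre1 (adjusted p = 0.0598), and for the mean of the doses Plet1 gave 0.39 ± 0.12 (adjusted p = 0.0216). At 120 ppm Plet1 passed without KO 0 ppm replicate 4, KO 120 ppm replicate 3 or WT 0 ppm replicate 4 (adjusted p 0.0384 to 0.046), and Adgre1 without KO 120 ppm replicate 4 or WT 0 ppm replicate 5 (adjusted p = 0.0499 and 0.0473). For the mean Adgre1 passed without WT 10 ppm replicate 4 or WT 40 ppm replicate 3 (adjusted p = 0.0304 and 0.0312). The Plet1 call at 40 ppm was lost without KO 0 ppm replicate 2, KO 40 ppm replicate 1, WT 0 ppm replicate 2 or 3, or WT 40 ppm replicate 2 or 3 (adjusted p 0.051 to 0.0629). The call of Plet1 for the mean was lost without KO 0 ppm replicate 2 or WT 0 ppm replicate 2 (adjusted p = 0.0561 and 0.0612). The Adgre1 call was lost without any of 11 of the 20 arrays (adjusted p 0.056 to 0.113): KO 0 ppm replicate 2, 3 or 5, KO 40 ppm replicate 1 or 5, WT 0 ppm replicate 1, 2, 3 or 4, and WT 40 ppm replicate 2 or 4. With the mean of Plet1's probe sets neither Plet1 call held (0.36, adjusted p = 0.0522, at 40 ppm and 0.25, adjusted p = 0.0884, for the mean).

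For TG minus WT, 0 markers passed at 10 ppm (5.51% of all genes) and 1, Plet1, at 40 ppm (10.1%), at 120 ppm (9.75%) and for the mean of the doses (14%). The differences of Plet1 were 0.42 ± 0.13 (adjusted p = 0.0376), 0.47 ± 0.13 (adjusted p = 0.0201) and 0.38 ± 0.11 (adjusted p = 0.0166). In TG itself Plet1 was 9.84, 9.71, 9.59, 9.69 and 9.65 at 120 ppm, against 9.44, 9.51, 9.62, 9.88 and 9.65 in air. Centring each array on its median took these Plet1 calls away (adjusted p = 0.146, 0.0842 and 0.0865), and Ctsk passed at 40 ppm in its place (-0.77, adjusted p = 0.0379). The Plet1 call at 40 ppm was also lost with no level filter (adjusted p = 0.053). The call at 40 ppm was lost without TG 0 ppm replicate 1 or 2, TG 40 ppm replicate 1 or 3, WT 0 ppm replicate 2 or 3, or WT 40 ppm replicate 2, 3 or 4 (adjusted p 0.0559 to 0.0818). The call for the mean was lost without WT 0 ppm replicate 2 (adjusted p = 0.0518). Adgre1 differed by 0.44 ± 0.16 for the mean (adjusted p = 0.0538), and passed without TG 0 ppm replicate 1, 2 or 3, TG 10 ppm replicate 2, TG 120 ppm replicate 3 or 5, WT 10 ppm replicate 4 or WT 40 ppm replicate 3 (adjusted p 0.0342 to 0.046). It also passed at 120 ppm without TG 120 ppm replicate 3 (adjusted p = 0.0398). Ctsk, with -0.70 ± 0.25 at 40 ppm (adjusted p = 0.063), passed there without TG 0 ppm replicate 4 or WT 0 ppm replicate 3 (adjusted p = 0.0391 and 0.0494) and for the mean without TG 120 ppm replicate 1 (adjusted p = 0.0353).

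For CD-1 minus WT 0 of the 9 markers passed. Of all genes 1.89% passed at 10 ppm, 1.61% at 40 ppm, 4.37% at 120 ppm and 5.42% for the mean of the doses. At an unadjusted p under 0.05, limma gave 1 marker at 40 ppm, against 1923 of 11406 genes. For the mean it gave 1 marker, against 2251 genes. The interval of the Plet1 difference for the mean ran from -0.01 to 0.50, and that of Adgre1 from -0.28 to 0.35. The Ctsk difference was -1.02 ± 0.59 at 10 ppm, -0.61 ± 0.59 at 40 ppm and -1.02 ± 0.59 at 120 ppm, and -0.88 ± 0.48 for the mean (95% interval -1.86 to 0.09, adjusted p = 0.307). For Cd68 the mean difference was -0.33 ± 0.15 (95% interval -0.63 to -0.03, adjusted p = 0.203). For Mrc1 it was -0.36 ± 0.17 at 40 ppm (95% interval -0.70 to -0.02, adjusted p = 0.267). Responses were compared pairwise with the same WT arrays, so the 3 strains' differences are not independent.

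In air the markers' levels differed between strains, and so did the level of the whole arrays. In KO air lungs 6 of the 9 were lower than in WT (75.0% of all genes passed, median -0.36), in TG 8 were lower, also without TG 0 ppm replicate 4 (80.4%, median -0.48), and in CD-1 1 was higher and 3 were lower (53.4%, median -0.23). The shift was smaller for genes of high signal: among genes with a mean over 10 the median was -0.28 for KO, -0.35 for TG and -0.17 for CD-1. With each array centred on its median, 1 marker passed for KO (13.7% of all genes), 3 for TG (35.7%) and 4 for CD-1 (35.8%). Of all genes, 963 were then higher and 597 lower in KO than in WT. In TG 2525 were higher and 1546 lower, and in CD-1 2743 were higher and 1342 lower. Centring thus left more genes above WT than below it in each strain.

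After centring, Chil3 was higher in KO by 0.25 ± 0.08 (adjusted p = 0.0381) and in TG by 0.29 ± 0.08 (adjusted p = 0.00691), while as deposited it was lower in KO (-0.14 ± 0.06, adjusted p = 0.041) and in TG (-0.23 ± 0.06, adjusted p = 0.00262). Its direction in these strains against WT turned with the scaling, and is not settled. In TG, Adgre1 (-0.35 ± 0.12) and Cd68 (-0.29 ± 0.11) stayed lower after centring (adjusted p = 0.027 and 0.0398). As deposited, Cd68 was 8.22, 7.996, 8.23, 7.90 and 8.09 in TG air, against 8.96, 8.98, 8.82, 8.99 and 8.74 in WT air, below it in every array. In CD-1, Ctsk was 7.45, 7.34, 6.62, 5.50 and 8.002, against 8.19, 8.38, 8.52, 8.07 and 8.05 in WT. Its difference was -1.26 ± 0.29 as deposited (adjusted p = 0.0015) and -0.95 ± 0.29 after centring (adjusted p = 0.0144). This SE rests on a spread pooled over the air groups of all strains. The SD of Ctsk in air was 0.96 in CD-1, against 0.205 in WT, 0.15 in KO and 0.18 in TG. The SE and both adjusted p-values are therefore too small for CD-1 against WT. As deposited, every CD-1 air array lay below every WT air array.

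Marco was 7.59, 7.52, 7.08, 7.89 and 8.33 in CD-1 air, against 7.29, 7.32, 6.94, 7.05 and 7.28 in WT air. It was higher by 0.51 ± 0.21 as deposited (adjusted p = 0.0445), a call lost without any of 8 of the 10 arrays (CD-1 0 ppm replicates 1, 4 and 5 and each WT air array, adjusted p 0.0518 to 0.144), and by 0.82 ± 0.21 after centring (adjusted p = 0.00534). After centring Adgre1 (0.50 ± 0.12) and Mrc1 (0.37 ± 0.10) were higher in CD-1 as well (adjusted p = 0.00244 and 0.00731), and neither passed as deposited (0.20 ± 0.13 and 0.06 ± 0.10). Of all genes tested, 2743 were higher in CD-1 after centring, so such a rise is not particular to the markers. The Chil3 call of KO as deposited was lost without any of 6 of the 10 arrays (KO 0 ppm replicates 1, 3 and 4 and WT 0 ppm replicates 1, 2 and 3, adjusted p 0.0547 to 0.0975), and that of Cd68 without KO 0 ppm replicate 2 (adjusted p = 0.0622).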

How the data were processed

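The authors deposited a single table of log2 signal covering 45037 probe sets and 80 arrays. The submitters' processing notes name RMA and Partek without a version, and the sources used here do not say whether the 4 strains were normalized together. Normalizing across arrays sets levels relative to the whole array, so a shift of most genes between strains cannot be told apart from scaling. The platform annotation gave 1 symbol for 28898 probe sets, several for 551 and no entry for 15588. A gene was tested when its probe set lay above the table's median (4.28) in at least 5 arrays.

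Each strain was fitted alone with limma 3.58.1 in R 4.3.3 (20 arrays, 16 residual degrees of freedom), differences in response on 40 arrays (32 residual degrees of freedom) and strains in air on 20 arrays. P-values were adjusted by Benjamini-Hochberg over 11406 genes with a threshold of 0.05, and intervals are 95% intervals of limma. The labels call the samples biological replicates.

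The members and lists were chosen with earlier results of these data known. Named by rule were the 9 markers, up to 4 genes of lowest p per list, and up to 3 genes of highest within-group correlation per marker. Correlations used deviations from group means. Protein sequences were not used here. Alternatives were array centring, quantile normalization, no level filter, the mean of a gene's probe sets, 1 fit of all arrays, the replicate number as a block, array weights, a variance trend with robust moderation, and leaving out each array. The fitting script was tested on simulated data with known changes. Figures were drawn with matplotlib 3.10.9.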

Additional observations from a re-analysis of the deposited data

Results flagged for a closer look

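In 10 of 144 sets of 5 arrays (9 markers in 16 groups) the lowest or highest array stood apart from the rest by Dixon's test, and chance alone flags about 1 in 20 sets. In CD-1 these were Chil3 in 0 ppm replicate 3 (11.6, the next at 11.8), and at 40 ppm replicate 5 both Marco (6.29, the next at 7.43) and Mrc1 (9.65, the next at 9.24). In TG they were Fabp4 in 0 ppm replicate 3 (7.22, the next at 9.17), Cd68 in 10 ppm replicate 1 (8.21, the next at 8.41), and Marco in 10 ppm replicate 5 (7.23, the next at 6.495) and in 40 ppm replicate 2 (7.48, the next at 6.85). In WT they were Mrc1 in 10 ppm replicate 2 (8.98, the next at 9.53), Chil3 in 40 ppm replicate 1 (12.2, the next at 12.0) and Plet1 in 120 ppm replicate 5 (9.92, the next at 9.78). No cause was tested.

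The response to styrene differed between strains by the test of the difference for 3 markers. For KO minus WT these were Ctsk at 10 ppm (-0.73, adjusted p = 0.0228) and for the mean of the doses (-0.57, adjusted p = 0.0155), Plet1 at 40 ppm (0.47, adjusted p = 0.0265) and for the mean (0.39, adjusted p = 0.0216), and Adgre1 at 40 ppm (0.40, adjusted p = 0.0435). Of all genes 7.59% passed at 10 ppm, 13.9% at 40 ppm and 17.2% for the mean. Fitting all arrays together ended the calls of Ctsk and Adgre1. The Adgre1 call was also lost in 11 of the 20 fits with a single array left out. With the mean of its probe sets neither call of Plet1 held. For TG minus WT the calls were Plet1 at 40 ppm (0.42, adjusted p = 0.0376), at 120 ppm (0.47, adjusted p = 0.0201) and for the mean (0.38, adjusted p = 0.0166). Of all genes 10.1% passed at 40 ppm, 9.75% at 120 ppm and 14% for the mean. Centring each array on its median took these Plet1 calls away. Nothing about the markers as a set is read from the calls of either strain.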

How the results depend on the processing

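Over 8 settings beside leaving out arrays, 2384 of 2448 values of single markers kept their side of the threshold and, where called, their direction. Values that passed in neither fit count among those kept, so this number says little about how firm the calls are. Of the rest, 37 lost their call, 20 gained one, and 7 turned their sign. The counts, or the markers that passed, moved as follows. With all 80 arrays in 1 fit they were 0 for WT at 10 ppm, 2 for WT at 40 ppm, 0 for KO minus WT at 10 ppm, 1 at 40 ppm and 1 for the mean, and 2 for TG minus WT for the mean. With array medians centred they were 1 for TG minus WT at 40 ppm (Ctsk in place of Plet1), 1 for KO minus WT at 120 ppm, 0 for TG minus WT at 120 ppm and 0 for the mean, 1 for KO in air and 3 for TG in air. Quantile normalization gave 1 for KO minus WT at 120 ppm, 2 for TG minus WT at 40 ppm, 0 for KO in air and 3 for TG in air. No level filter gave 1 for KO minus WT and 0 for TG minus WT at 40 ppm, and the mean of probe sets gave 1 for KO minus WT at 40 ppm and 1 for the mean. Array weights gave 2 for KO minus WT at 120 ppm, 2 for TG minus WT at 40 ppm and 2 for the mean, and the robust variance trend 2 for TG minus WT for the mean. Other counts changed by less. Array weights gave 3 for WT at 120 ppm, 3 for KO minus WT at 40 ppm and 7 for KO in air. The fit of all 80 arrays gave 3 for the WT mean of the doses, 5 for KO in air and 3 for CD-1 in air. The mean of probe sets gave 9 for TG in air and 5 for CD-1 in air. Values in air that turned their sign were Cd68 in KO (0.101 centred, 0.0757 quantile) and Chil3 in KO (0.25 and 0.0754), in TG (0.289 and 0.0729) and in CD-1 (0.0816 centred). The cause was not tested.

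With single arrays left out, the counts for WT ran from 1 to 3 at 10 ppm and at 40 ppm. For WT at 120 against 10 ppm they ran from 0 to 1. For KO minus WT they ran from 0 to 1 at 10 ppm and at 120 ppm. At 40 ppm they ran from 0 to 2, and for the mean from 1 to 3. For TG minus WT they ran from 0 to 2 at 40 ppm, 1 to 2 at 120 ppm and 0 to 2 for the mean. Contrasts whose count moved by 1.5 times or less are not listed, but single calls changed there too. These were Ctsk in WT at 120 ppm, and Adgre1, Cd68 and Atp6v0d2 for the WT mean of the doses. In air they were Chil3 and Cd68 for KO and Marco for CD-1. The replicate numbers share no stated animal or batch, and same-numbered arrays correlated from -0.521 to 0.326 (19 of 60 pairs over 0.1), with 14 of 60 exposed arrays nearest to the air array of their own number. With the replicate block 2 markers passed for WT at 10 ppm and 0 for TG minus WT at 40 ppm (Plet1, adjusted p = 0.0599), and no other count moved by over 1.5 times. With 5 arrays a group, changes of Fabp4, and of Ctsk and Marco in CD-1, are poorly bounded.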
